A study of Homo sapiens with 6 samples.

Results

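The genes described here are 44 genes known to be induced by estrogen in breast cancer cells, each taken by its exact gene symbol, out of 27754 genes counted in T47D cells. Of the 44 genes, 43 were among the 15657 genes with enough reads to be tested, and CYP2B6 was not. T47D is an established luminal human breast cancer line that expresses the estrogen receptor. RNA was sequenced from 3 libraries of cells in normoxia (20% O2) and 3 libraries of cells held for 48 h in hypoxia. The labels of the libraries give hypoxia as 0.5% O2, which differs from the level in the paper. All 6 libraries came from the same parental line, grown as adherent cultures in RPMI medium with fetal bovine serum, and the labels name no added estrogen, no estrogen withdrawal and no genetic change. The labels do not say whether the numbered replicates were separate cultures, while the paper describes the experiments of the figure that holds these data as independent, and a p-value here measures the spread between these libraries. Hypoxia in 1 cell line was the only contrast, so estrogen dependence itself was not measured.

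The estrogen receptor encoded by ESR1 is a nuclear receptor that, once it has bound estrogen, attaches to estrogen response elements in DNA or to other factors already bound there, and recruits coactivators that raise transcription of nearby genes. FOXA1 and GATA3 open the chromatin at many of these places in luminal breast cells. The induced genes have varied products, among them secreted trefoil proteins, growth factor receptors, ion channels, chaperones of steroid receptors, and transcription factors of the next tier. Levels of such genes are commonly read as a measure of receptor activity, although many of them also answer to other signals.

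A full estrogen response element (GGTCANNNTGACC, with N any base) stood within 5000 bases either side of the first counted base of 3 of the 44 genes. It stood in the same window of 146 of 15617 tested genes that could be scanned (0.935%). The 3 stretches are shown because they are the only such matches among these genes. Each is 30 bases of GRCh37 read along the strand of its gene, with the 13 bases of the match in capitals.
GREB1, chr2:11672652-11672681, plus strand, 1576 bases upstream of the gene: ggcaactgGGTCATTCTGACCtagaagcaa
CELSR2, chr1:109789027-109789056, plus strand, 3600 bases upstream of the gene: ccacaaaaGGTCACCATGACCgatcccatc
NRIP1, chr21:16437954-16437983, minus strand, 842 bases upstream of the gene: tgggcgtggGGTCAAAGTGACCcagagttc
All 3 matches lay outside the counted gene and in no exon of another gene. GREB1 and CELSR2 fell in hypoxia (log2 fold changes -0.90 and -1.12), and NRIP1 did not pass the threshold (0.31). A match of letters is a description and does not show that the receptor binds there.

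Library totals ran from 32989104 to 40943424 counts, except for hypoxia replicate 3, which held 89883409 counts. At these depths 3 counts correspond to between 0.0328 and 0.0969 counts-per-million (CPM), and this floor covers counting error only. Of the luminal markers, 9 of 9 were above 0 in every library, and their summed level was lower in hypoxia in each same-numbered pair, at 13383, 12903 and 17538 CPM in normoxia replicates 1, 2 and 3 against 10746, 10337 and 13632 CPM. Of the 9 markers 3 (ESR1, GATA3 and FOXA1) fell (33.3%, against 29.1% of all tested genes) and 0 rose. With the block 6 fell (66.7%, against 35.2% of all tested genes) and CDH1 rose (log2 fold change 0.20, adjusted p = 0.00965). The part of the lower summed level of these markers in the results was not tested. The 10 markers of other cell types summed to 80.3 to 114 CPM, most of it COL1A1 (mean of 88.7 CPM in normoxia, 84.3 CPM in hypoxia). Of the 4 that could be tested (VIM, CDH2, SPARC and COL1A1), CDH2, a mesenchymal cadherin, rose from a mean of 0.492 to 1.88 CPM (log2 fold change 1.90, adjusted p = 0.00245). PTPRC, the leukocyte marker, was too low to be tested, at 0 in normoxia and 4, 1 and 5 counts in hypoxia. Also untested were KRT5 (0, 2 and 0 counts in normoxia, 7, 10 and 42 in hypoxia) and ZEB1 (1, 0 and 4, then 6, 10 and 24). Untested COL1A2 went the other way, from 5, 0 and 7 counts to 1, 2 and 2. All 10 hypoxia reference genes rose (100%, against 30.4% of all tested genes). Both libraries numbered 3 stood apart from the others, and VIM, a mesenchymal marker, was at 12.8 and 11 CPM in them and at 0.177 to 0.957 CPM in the other libraries. The part of VIM-expressing cells in the results was not tested. Normoxia replicate 3 was the lowest of its condition for 30 of the 44 estrogen-induced genes, against 43.2% of all tested genes. In that library PDZK1, RET, KCNK5, MAPT, EGR3, RAB31 and CYP2B6 were more than 2-fold lower than in both other normoxia libraries.

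The estrogen-induced genes were mostly lower in hypoxia. By edgeR's quasi-likelihood test, with Benjamini-Hochberg adjustment over all tested genes at 0.05, 25 of the 43 tested genes fell (58.1%), against 29.1% of all tested genes that fell. Only TFF1, RET and PRSS23 rose (6.98%), against 30.4% of all tested genes that rose, and 15 genes did not pass the threshold. The median log2 fold change was -0.74 over the 43 genes and 0.03 over all tested genes. In these bulk libraries, less RNA per cell and fewer expressing cells cannot be told apart. A fall or rise of at least 2-fold, together with the test, was met by 15 genes that fell (4.91% of all tested genes) and 3 that rose (15.2%). With the replicate number as a block, 28 genes fell and 7 rose, beside 35.2% and 36.6% of all tested genes. Without both libraries numbered 3, 30 genes fell and 7 rose of 44 tested, beside 34.8% and 36.4% of all tested genes. Taken one same-numbered pair at a time, the median log2 ratio was -0.76 in pairs 1 and 2 and -0.53 in pair 3.

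**Figure D1:**
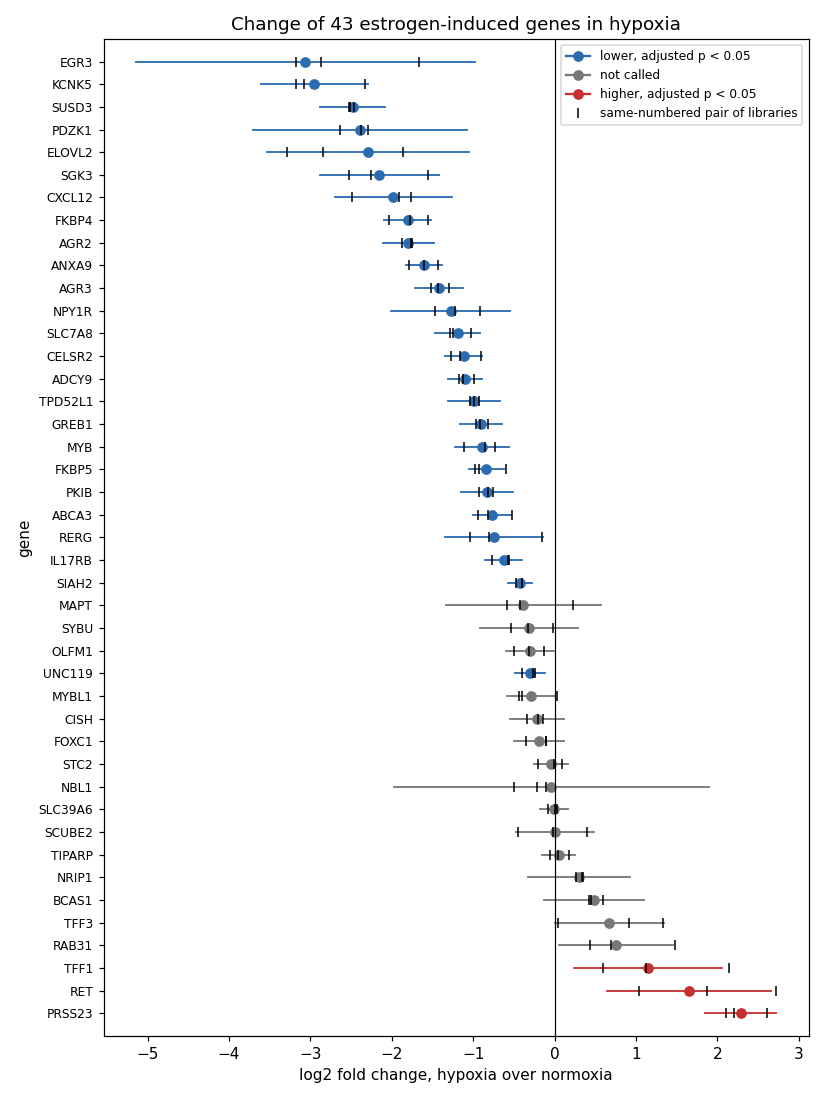
Log2 fold change (hypoxia over normoxia) of each of the 43 tested estrogen-induced genes, with its 95% interval as a bar, its call as colour, and the ratio within each same-numbered pair of libraries as a tick. The genes run from EGR3 at -3.06 to PRSS23 at 2.28, and 25 are coloured as lower, 3 as higher and 15 as not called.

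Of the genes that encode secreted proteins, 3 of 10 fell (30%, near the 29.1% of all tested genes) and 2 rose (20%, against 30.4%), with a median log2 fold change of -0.04. The largest fall among them was that of CXCL12, the chemokine that signals through CXCR4. CXCL12 stood at 418, 370.2 and 266 CPM in normoxia replicates 1, 2 and 3 and at 111, 109 and 47.6 CPM in hypoxia. The groups did not overlap, and the libraries numbered 3 were the lowest of each condition. Its log2 fold change was -1.98 (SE 0.31, adjusted p = 0.00138), a 3.94-fold lower level. AGR2, a protein disulfide isomerase of the endoplasmic reticulum that helps fold mucins, stood at 723, 684 and 553 CPM in normoxia and at 215, 187 and 163 CPM in hypoxia. All 3 hypoxia libraries lay far under the lowest normoxia library, and the log2 fold change was -1.80 (SE 0.13, adjusted p = 7.53e-05). Its paralog AGR3 stood at 68.6, 71.5 and 53.5 CPM in normoxia and at 24.0, 26.4 and 21.9 CPM in hypoxia, with no overlap and a log2 fold change of -1.42 (SE 0.13, adjusted p = 1.37e-04). AGR2 (chr7:16832264-16844738) and AGR3 (chr7:16899030-16921613) lie 54291 bases apart in GRCh37, with no counted gene between them.

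PRSS23 and TFF1 were the secreted members that rose, both from low levels. PRSS23, a secreted serine protease, stood at 2.48, 1.85 and 1.62 CPM in normoxia and at 10.7, 8.58 and 9.90 CPM in hypoxia. The lowest hypoxia library was well above the highest normoxia library, and the log2 fold change was 2.28 (SE 0.19, adjusted p = 1.07e-04), a 4.87-fold higher level. Of the counted exon bases of PRSS23, 12.2% overlap FZD4 on the opposite strand, and the strand setting of the counting is not given in the sources used here. TFF1, the trefoil peptide long used as a marker of estrogen response, had only 45, 20 and 12 counts in normoxia and 70, 43 and 156 counts in hypoxia. Its levels were 1.14, 0.537 and 0.388 CPM against 1.73, 1.18 and 1.71 CPM, so the groups lay close without overlap, and the log2 fold change was 1.14 (SE 0.39, adjusted p = 0.0350). TFF1 no longer passed the threshold without normoxia replicate 2 (0.97, adjusted p = 0.103), normoxia replicate 3 (0.87, adjusted p = 0.0737), hypoxia replicate 1 (1.06, adjusted p = 0.100) or hypoxia replicate 3 (1.05, adjusted p = 0.0770).

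TFF3, the trefoil peptide encoded near TFF1 on chromosome 21, stood at 7.90, 11.3 and 4.59 CPM in normoxia and at 14.9, 11.6 and 11.6 CPM in hypoxia. The highest normoxia library and the lowest hypoxia library were nearly equal. Its log2 fold change of 0.67 (SE 0.29) did not pass the threshold (adjusted p = 0.0753), but did with the replicate block (0.74, adjusted p = 0.0144), with edgeR's exact test (adjusted p = 0.0434), with DESeq2 (adjusted p = 0.0357) and without normoxia replicate 2 (1.00, adjusted p = 0.0134). TFF3 also passed with upper-quartile factors and without both libraries numbered 3. STC2, a secreted stanniocalcin glycoprotein, was the second most abundant of the genes per length and held its level. It stood at 1229, 1287 and 1081 CPM in normoxia and at 1224, 1113 and 1149 CPM in hypoxia, with fully overlapping groups. Its log2 fold change was -0.05 with a 95% interval from -0.26 to 0.17 (adjusted p = 0.691). SCUBE2, a secreted protein that releases Hedgehog ligands, stood at 38.5, 54.1 and 47.6 CPM in normoxia and at 37.8, 39.7 and 62.6 CPM in hypoxia, with an interval of the log2 fold change from -0.48 to 0.49. OLFM1, a secreted olfactomedin, stood at 244, 233 and 215 CPM in normoxia and at 196, 213 and 151 CPM in hypoxia. Every hypoxia library of OLFM1 was under the lowest normoxia library by a small margin, and its log2 fold change of -0.30 (SE 0.13) passed the threshold only with the block (adjusted p = 0.0706 without and 0.00499 with it) and without hypoxia replicate 2 (-0.41, adjusted p = 0.0357) or both libraries numbered 3 (-0.22, adjusted p = 0.00677). NBL1, a secreted antagonist of bone morphogenetic proteins, had 22, 13 and 65 counts in normoxia and 16, 11 and 178 counts in hypoxia, so that the libraries numbered 3 were high in both conditions. Of its counted bases, 57.7% are shared with the readthrough gene MINOS1-NBL1, and its interval from -1.98 to 1.90 leaves its direction undetermined.

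**Figure D2:**
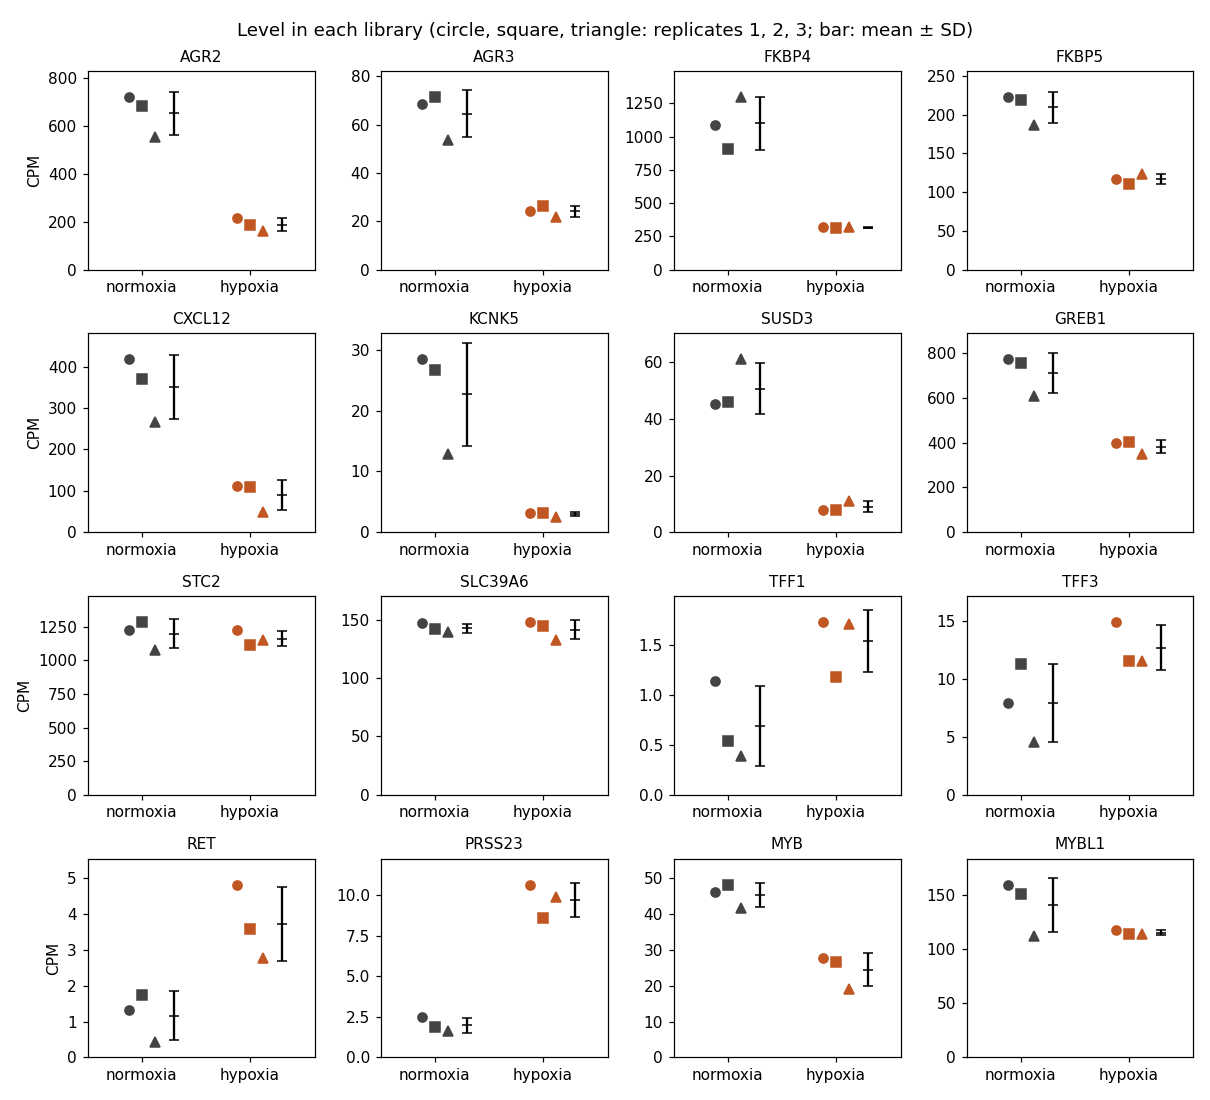
Level (CPM, linear axes from 0) in each library for 16 of the genes, with normoxia and hypoxia side by side, replicates 1, 2 and 3 as circle, square and triangle, and the mean ± SD of 3 libraries as a bar. AGR2, FKBP4, CXCL12, KCNK5 and SUSD3 show separate groups with hypoxia lower, STC2 and SLC39A6 overlap, and RET and PRSS23 show separate groups with hypoxia higher.

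By the quasi-likelihood test, 3 of 7 genes for regulators of transcription fell (42.9%, against 29.1% of all tested genes) and 0 rose (against 30.4%). Also 0 rose at an unadjusted p under 0.05, with edgeR's exact test and with DESeq2. With the block 4 fell (57.1%, against 35.2% of all tested genes) and 1 (NRIP1) rose (14.3%, against 36.6%). The median log2 fold change was -0.29 without the block. GREB1, a chromatin-bound partner of the estrogen receptor, stood at 774, 756 and 612 CPM in normoxia and at 398, 403 and 348 CPM in hypoxia. The groups were well apart, and GREB1 fell 1.87-fold (log2 fold change -0.90, SE 0.11, adjusted p = 4.32e-04). MYB, a transcription factor of proliferating luminal cells, stood at 46.1, 48.3 and 41.6 CPM in normoxia and at 27.8, 26.7 and 19.2 CPM in hypoxia. It fell in all 3 pairs, by -0.89 on the log2 scale (SE 0.14, adjusted p = 0.00145). Its paralog MYBL1 stood at 159.6, 151 and 112 CPM in normoxia and at 118, 114 and 114 CPM in hypoxia, and normoxia replicate 3 lay under all of the hypoxia libraries. Its log2 fold change of -0.29 (SE 0.13) did not pass the threshold (adjusted p = 0.0803), but did with the block (adjusted p = 0.0258) and without normoxia replicate 3 (-0.43, adjusted p = 0.00271). MYBL1 also passed without both libraries numbered 3 (-0.42, adjusted p = 2.66e-05).

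EGR3, an immediate early zinc finger factor, had the largest fitted fall but the widest spread among the genes that fell. It stood at 6.13, 5.91 and 0.452 CPM in normoxia and at 0.840, 0.656 and 0.142 CPM in hypoxia, so that normoxia replicate 3 was under 2 of the hypoxia libraries. Its log2 fold change was -3.06 (SE 0.90, adjusted p = 0.0217), and -2.78 (adjusted p = 4.68e-05) with the block. EGR3 did not pass the threshold without normoxia replicate 1 (-2.65, adjusted p = 0.0626), normoxia replicate 2 (-2.73, adjusted p = 0.0548), hypoxia replicate 2 (-3.26, adjusted p = 0.0512) or hypoxia replicate 3 (-2.49, adjusted p = 0.0515). NRIP1, a corepressor that the receptor itself recruits, stood at 170.2, 135 and 88.3 CPM in normoxia and at 204, 172 and 111 CPM in hypoxia. The groups overlapped widely, yet each hypoxia library was above the normoxia library with its number. The log2 fold change of 0.31 (SE 0.27) had an adjusted p of 0.358 without the block and 8.19e-04 with it, and of 0.0111 without both libraries numbered 3. FOXC1, a forkhead factor, stood at 9.58, 8.95 and 8.95 CPM in normoxia and at 8.89, 8.31 and 6.99 CPM in hypoxia, with an interval from -0.49 to 0.12. Every hypoxia library of FOXC1 was under the lowest normoxia library, the highest of them by a small margin. TIPARP, an ADP-ribosyltransferase that limits the aryl hydrocarbon receptor, stood at 52.2, 47.6 and 43.6 CPM in normoxia and at 50.2, 48.9 and 49.3 CPM in hypoxia. Its hypoxia libraries lay within the normoxia range, and its interval ran from -0.15 to 0.25. Of the counted bases of TIPARP, 18.7% overlap the antisense gene TIPARP-AS1.

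Among receptors, channels and transporters of the membrane, 7 of 9 fell (77.8%) and 1 rose (11.1%), against 29.1% and 30.4% of all tested genes. The median log2 fold change of the 9 genes was -1.12. KCNK5, a background potassium channel, stood at 28.4, 26.7 and 12.9 CPM in normoxia and at 3.14, 3.17 and 2.57 CPM in hypoxia. Even the low normoxia replicate 3 was several times above each hypoxia library. KCNK5 fell 7.73-fold (log2 fold change -2.95, SE 0.29, adjusted p = 1.99e-04). SUSD3, a small membrane protein with a sushi domain, stood at 45.2, 46.0 and 61.1 CPM in normoxia and at 7.93, 7.98 and 11.1 CPM in hypoxia. Here the libraries numbered 3 were the highest of each condition, the groups were far apart, and SUSD3 fell 5.59-fold (log2 fold change -2.48, SE 0.17, adjusted p = 6.14e-05). The other membrane genes that fell were NPY1R (a neuropeptide Y receptor, -1.28), SLC7A8 (a neutral amino acid transporter, -1.19), CELSR2 (a cadherin of planar polarity, -1.12), ABCA3 (a lipid transporter, -0.77) and IL17RB (an interleukin receptor, -0.63), as log2 fold changes.

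RET, the receptor tyrosine kinase for ligands of the GDNF family, was the membrane gene that rose. It stood at 1.32, 1.75 and 0.420 CPM in normoxia and at 4.82, 3.58 and 2.78 CPM in hypoxia, from 52, 65 and 13 counts against 195, 131 and 254 counts. Every hypoxia library was above every normoxia library, and the log2 fold change was 1.65 (SE 0.44, adjusted p = 0.0125). SLC39A6, a zinc importer known as an estrogen-induced gene of luminal tumours, stood at 147, 142 and 139 CPM in normoxia and at 148, 144 and 132 CPM in hypoxia. The groups coincided, and the interval of its log2 fold change ran from -0.18 to 0.16.

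Among genes for signalling proteins, enzymes and chaperones, 8 of 10 fell (80%) and 0 rose by the quasi-likelihood test. The shares of all tested genes were 29.1% and 30.4%, and the median log2 fold change of the 10 genes was -0.79. RAB31 was higher at an unadjusted p under 0.05 and passed with edgeR's exact test, with DESeq2 and with the block. Under the block 9 fell (90%, against 35.2% of all tested genes) and 1 rose (10%, against 36.6%). FKBP4, a co-chaperone of HSP90 that promotes steroid receptor function, stood at 1089.7, 908 and 1301 CPM in normoxia and at 318, 309 and 318 CPM in hypoxia. The 3 hypoxia libraries were nearly equal and the groups far apart, and FKBP4 fell 3.49-fold (log2 fold change -1.80, SE 0.13, adjusted p = 5.99e-05). Its paralog FKBP5, which restrains the same receptors and is also induced by glucocorticoid, progesterone and androgen receptors, stood at 223, 218 and 186 CPM in normoxia and at 117, 111 and 124 CPM in hypoxia. FKBP5 fell 1.79-fold with no overlap (log2 fold change -0.84, SE 0.09, adjusted p = 2.59e-04). The intervals of the log2 fold changes were -2.09 to -1.51 for FKBP4 and -1.05 to -0.63 for FKBP5. Both come from the same libraries, and the difference between these paralogs was not tested.

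SGK3, a kinase of the phosphoinositide pathway, had 51, 30 and 45 counts in normoxia and 11, 10 and 23 counts in hypoxia, with a log2 fold change of -2.15 (SE 0.32, adjusted p = 8.47e-04). Of its counted bases, 88.0% are shared with the readthrough gene C8orf44-SGK3, so its level is uncertain. The others that fell were ADCY9 (an adenylyl cyclase, -1.10), PKIB (an inhibitor of protein kinase A, -0.83), RERG (a small GTPase, -0.74), SIAH2 (a ubiquitin ligase, -0.43) and UNC119 (a trafficking chaperone for lipid-modified proteins, -0.30), as log2 fold changes. SIAH2, whose known substrates include the prolyl hydroxylases that mark HIF for degradation, gave nearly equal values within each condition, at 135, 136 and 142 CPM in normoxia and at 102, 103 and 102 CPM in hypoxia (adjusted p = 0.00108). RERG overlapped between groups, with normoxia replicate 3 at 33.3 CPM under hypoxia replicates 1 and 2 at 37.2 and 35.7 CPM, and its adjusted p of 0.0382 became 0.0707 to 0.113 when any single library other than normoxia replicate 3 was left out, with log2 fold changes from -0.81 to -0.54. UNC119 (adjusted p = 0.0139) did not pass without normoxia replicate 1 (-0.28, adjusted p = 0.0609) or hypoxia replicate 1 (-0.29, adjusted p = 0.0594).

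CISH, a suppressor of cytokine signalling, stood at 37.4, 37.8 and 46.0 CPM in normoxia and at 32.6, 29.8 and 41.6 CPM in hypoxia. The libraries numbered 3 were the highest of each condition and the groups overlapped, while each hypoxia library was under its own pair. The log2 fold change of -0.22 (SE 0.14) had an adjusted p of 0.223 without the block, 0.0153 with it and 0.0252 without hypoxia replicate 3 (-0.38). Without both libraries numbered 3, CISH was at -0.26 (adjusted p = 0.00690). RAB31, a small GTPase of vesicle traffic, stood at 23.6, 26.3 and 10.2 CPM in normoxia and at 38.1, 35.4 and 28.7 CPM in hypoxia. Its groups did not overlap, but normoxia replicate 3 was far under the other normoxia libraries. The log2 fold change of 0.76 (SE 0.30) missed the threshold by the quasi-likelihood test (adjusted p = 0.0616), and passed with the block (0.84, adjusted p = 0.00251), with edgeR's exact test (adjusted p = 0.0278), with DESeq2 (adjusted p = 0.0198), without normoxia replicate 2 (0.99, adjusted p = 0.0358) and without normoxia replicate 3 (0.44, adjusted p = 0.0280). RAB31 also passed with upper-quartile factors, with no filter on low counts and without both libraries numbered 3.

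The remaining genes are scaffolds, metabolic enzymes and cytoskeletal proteins. Of these, 4 of 7 tested fell (57.1%, against 29.1% of all tested genes) and 0 rose (against 30.4%) by the quasi-likelihood test. Also 0 rose at an unadjusted p under 0.05, with edgeR's exact test and with DESeq2. With the block 4 fell (57.1%, against 35.2% of all tested genes) and 1 (BCAS1) rose (14.3%, against 36.6%). PDZK1, a scaffold that anchors membrane transporters, stood at 136, 119.9 and 39.6 CPM in normoxia and at 26.2, 24.5 and 6.39 CPM in hypoxia. The libraries numbered 3 were the lowest of each condition by a wide margin, the groups did not overlap, and the log2 fold change was -2.39 (SE 0.57, adjusted p = 0.00966). PDZK1 has near-identical copies in the genome, and how reads with several matches were counted is not given in the sources used here. ELOVL2, an elongase of polyunsaturated fatty acids, stood at 7.63, 9.08 and 14.9 CPM in normoxia and at 1.06, 0.929 and 4.08 CPM in hypoxia, with the libraries numbered 3 the highest of each condition. It fell without overlap (log2 fold change -2.29, SE 0.54, adjusted p = 0.00808). ANXA9, a member of the annexin family, stood at 129.8, 126 and 135 CPM in normoxia and at 48.1, 41.3 and 39.1 CPM in hypoxia. With tight replicates in both conditions, ANXA9 had the lowest adjusted p of the 43 genes, 3.94e-05, at a log2 fold change of -1.61 (SE 0.09). TPD52L1, a coiled-coil protein, fell by -0.99 on the log2 scale.

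BCAS1, a gene named for its amplification in breast cancer, stood at 13.6, 13.6 and 8.24 CPM in normoxia and at 20.6, 18.2 and 11.2 CPM in hypoxia. Its groups overlapped while each pair was higher in hypoxia, and the log2 fold change of 0.48 (SE 0.26) had an adjusted p of 0.148 without the block, 0.00131 with it and 0.0249 without hypoxia replicate 3 (0.70). Without both libraries numbered 3, BCAS1 was at 0.51 (adjusted p = 3.06e-04). MAPT, the microtubule protein tau, stood at 105, 109.6 and 35.0 CPM in normoxia and at 69.5, 81.3 and 41.0 CPM in hypoxia. Pairs 1 and 2 were lower in hypoxia and pair 3 was not, and the log2 fold change was -0.38 (SE 0.41, adjusted p = 0.450). It was -0.75 (adjusted p = 0.0342) without normoxia replicate 3, and -0.50 (adjusted p = 4.02e-05) without both libraries numbered 3. The log2 fold change of SYBU, a linker of cargo to kinesin, was -0.32 (SE 0.26, adjusted p = 0.325). CYP2B6, a drug-metabolising cytochrome, had 16, 15 and 3 counts in normoxia and 7, 5 and 8 counts in hypoxia, and was too low to be tested.

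**Figure D3:**
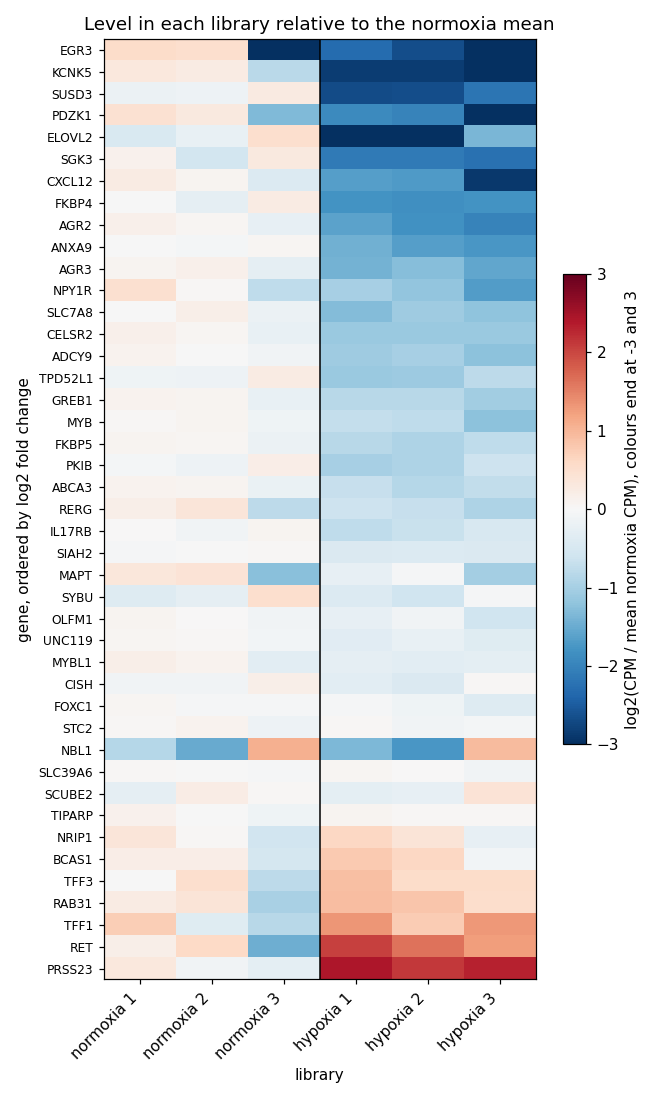
Level of the 43 tested genes (rows, ordered by log2 fold change) in the 6 libraries (columns), as log2 of CPM over the normoxia mean of the gene, with colours ending at -3 and 3. Hypoxia columns are blue for the upper rows and red for RET and PRSS23, and the columns of normoxia replicate 3 and hypoxia replicate 3 differ from their neighbours in rows such as EGR3, PDZK1, MAPT and NBL1.

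A gene was said to hold where it was not called and the whole 95% interval of its change lay within 1.5-fold each way. This was met by 7 of the 43 genes (MYBL1, CISH, FOXC1, STC2, SLC39A6, SCUBE2 and TIPARP), against 23.5% of all tested genes. MYBL1 and CISH were nonetheless called lower with the block and without both libraries numbered 3. STC2, SLC39A6, SCUBE2, TIPARP and FOXC1 met the rule and were not called with the block either. The other 8 genes that did not pass the threshold had intervals that reached past 1.5-fold, and were neither called as changed nor shown to hold. Among them, the intervals of OLFM1 (-0.598 to -0.0094), TFF3 (0.0082 to 1.34) and RAB31 (0.057 to 1.46) did not include 0. The groups did not overlap for 25 genes that were lower in hypoxia (32.4% of all tested genes) and 5 that were higher (34.9%). FOXC1, which met the rule for holding, was among those 25 genes. All 3 same-numbered pairs moved down for 30 genes (40.1% of all tested genes) and up for 7 (42.9%).

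Abundance was taken as RPKM, that is CPM divided by the counted exon length in kilobases, which allows levels to be compared between genes, as the mean over the 6 libraries. It ran from 0.157 RPKM for SGK3 to 428 RPKM for AGR2 among tested genes, with STC2 (221 RPKM), FKBP4 (189 RPKM), AGR3 (59.1 RPKM) and OLFM1 (54.1 RPKM) next after AGR2. Of these 5 most abundant genes, AGR2, FKBP4 and AGR3 fell, and STC2 held, while OLFM1 did not pass the threshold except in the fits named with its values. The value for MAPT is a low estimate, since 6815 of its 13627 counted bases lie on chromosome 17 and the rest on 1 alternative haplotype. The values for SGK3 and NBL1 are uncertain, since 88.0% and 57.7% of their counted bases are shared with readthrough genes.

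In the lower class of abundance (14 genes, up to 5.40 RPKM), 6 genes fell and 3 rose, with a median log2 fold change of -0.35. The bound of 5.40 RPKM is the level of MAPT, a low estimate, and it also sets the ranges used for all tested genes. In the middle class (14 genes, 6.78 to 22.5 RPKM), 8 fell and 0 rose by the quasi-likelihood test, with a median of -0.76. RAB31 and TFF3, both in the middle class, were higher at an unadjusted p under 0.05, with edgeR's exact test and with DESeq2. In the upper class (15 genes, from 24.7 RPKM), 11 fell and 0 rose, with a median of -0.90. Also 0 rose there at an unadjusted p under 0.05 and by both other tests, while OLFM1 was lower at an unadjusted p under 0.05. The share that fell was thus 42.9%, 57.1% and 73.3%, while among all tested genes in the same ranges of RPKM it was 11.5%, 36.1% and 53.6%. The share of all tested genes that rose was 44.5%, 23.0% and 13.5%. The 3 genes that rose without the block were in the lower class, where the median SE of the log2 fold change was 0.32, compared with 0.14 and 0.13 in the middle and upper classes. With the block, 6 genes fell and 4 rose in the lower class, 9 fell and 3 rose (RAB31, TFF3 and NRIP1) in the middle class, and 13 fell and 0 rose in the upper class. Among all tested genes the blocked shares were 14.7% lower and 51.5% higher in the range of the lower class, 44% lower and 29.1% higher in the middle, and 63.1% lower and 18.1% higher in the upper.

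Spearman's rho between the signed log2 fold change and mean RPKM was -0.18 over the 43 genes and -0.47 over all tested genes, given as a description since genes share libraries and depth. For the absolute log2 fold change, rho was -0.15 and -0.29. With the normoxia level as the measure of abundance, which also enters the fold change, rho was -0.31 over the 43 genes and -0.57 over all tested genes. With the hypoxia level, which enters it too, rho was 0.05 and -0.36. Among the 28 genes that fell or rose, rho was -0.06. EGR3, KCNK5 and ELOVL2, with mean levels of 0.523, 3.39 and 1.54 RPKM, were among the 5 largest falls, and so were SUSD3 and PDZK1 at 22.5 and 25.6 RPKM.

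**Figure D4:**
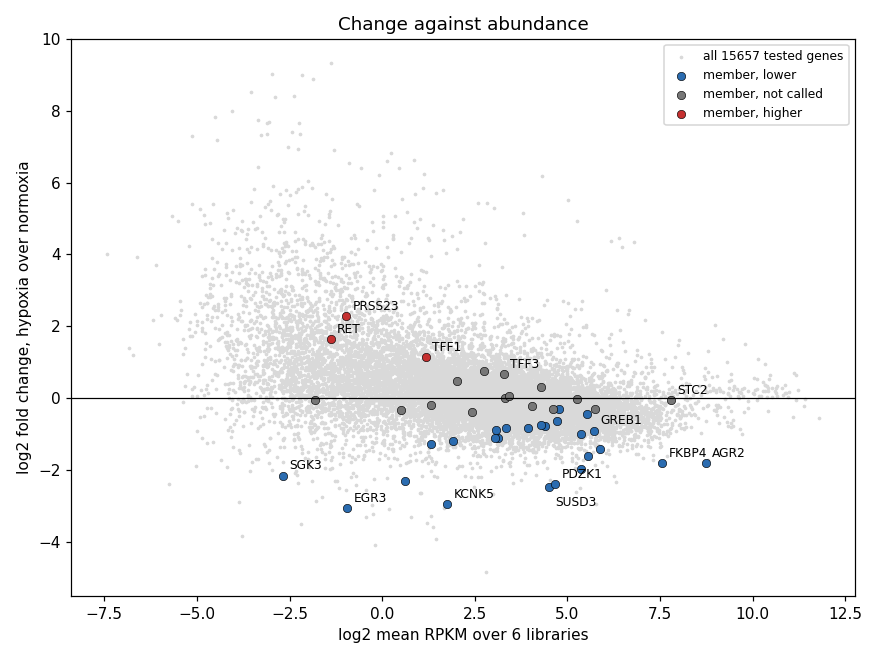
Log2 fold change (hypoxia over normoxia) against log2 mean RPKM over 6 libraries, with all 15657 tested genes in grey and the 43 estrogen-induced genes coloured by call. The genes that fell span the whole range from SGK3 to AGR2, and the 3 that rose without the block lie at the left, under 5.40 RPKM.

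Summed over the 44 genes, the level was 2205, 2102 and 1913 RPKM in normoxia replicates 1, 2 and 3 and 1067, 1006 and 945 RPKM in hypoxia. The mean went from 2073 ± 148 to 1006 ± 61.0 RPKM (SD, n = 3), a ratio of 0.485. AGR2 alone supplied 29.4% to 33.4% of this sum in normoxia and 17.5% to 20.5% in hypoxia. Without AGR2 the sum was 1409 ± 59.1 RPKM in normoxia and 814 ± 34.3 RPKM in hypoxia, a ratio of 0.578.

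The receptor transcript fell in the same libraries. ESR1 stood at 256, 257 and 302 CPM in normoxia replicates 1, 2 and 3 and at 75.3, 74.2 and 74.3 CPM in hypoxia, and so fell by 1.86 on the log2 scale (SE 0.09, adjusted p = 2.06e-05). PGR, the progesterone receptor and itself an estrogen-induced gene, fell by 2.93 (SE 0.20, adjusted p = 5.99e-05). Of 20 genes for the receptor, its pioneer factors and its cofactors, 8 fell (40%) and 5 rose (25%), against 29.1% and 30.4% of all tested genes, with a median log2 fold change of -0.07. The falls included SPDEF (-1.05), GATA3 (-0.74) and FOXA1 (-0.55), factors of luminal identity, and the rises included the coactivators CREBBP (0.46) and NCOA3 (0.39). Of 20 further estrogen-induced genes, 12 fell (60%) and 2 rose (10%), with a median of -0.58. BCL2, the inhibitor of apoptosis, fell by -2.63 and XBP1, a factor of the unfolded protein response, by -0.70, while WISP2, a secreted matricellular protein, rose by 1.94 on the log2 scale. Of 7 tested genes induced through other steroid receptors, 1 fell (14.3%) and 3 rose (42.9%), with a median of 0.20. SGK1 fell by 2.32, and CEBPD rose by 1.51, TSC22D3 by 1.12 and ERRFI1 by 0.81 on the log2 scale. Whether the fall of ESR1 bears on any of these changes was not tested.

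Reference promoters (RefSeq, GRCh38.p14, 250 bases before to 50 bases after the start) were matched by symbol for 32 of the 44 genes. The core of the hypoxia response element (ACGTG or GCGTG, either strand) was found in 16 of them (50%), beside 48.4% of all 35116 promoters and 59.7% of the promoters of tested genes. It was present for 9 of 19 genes that fell, including KCNK5, SUSD3, ELOVL2, ANXA9 and SIAH2, for 1 of 2 that rose (RET), and for 6 of 10 not called, including STC2 and SLC39A6. The single arm GGTCA, which is also part of the full estrogen response element, was found in 11 promoters (34.4%), beside 37.4% of all promoters and 34.7% of those of tested genes. The full element was found in 0 of the 32, beside 0.057% of all promoters. In the wider window, within 5000 bases either side of the start in GRCh37, it was found for 3 of 44 genes (6.82%), which are the GREB1, CELSR2 and NRIP1 matches printed above. GREB1 and CELSR2 are 2 of the 25 genes that fell (8%), beside 1.08% of all tested genes that fell. NRIP1 is 1 of the 15 genes not called (6.67%), beside 0.807% of all tested genes not called. Of the 3 genes that rose 0 had a match, beside 0.968% of all tested genes that rose.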

How the data were processed

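Gene counts were measured in 6 libraries of T47D cells. Per the labels and the paper's methods, the authors aligned stranded mRNA reads to hg19 (GRCh37) with STAR 2.5.2a and deposited raw counts per RefSeq gene from featureCounts 1.5.1 for each library (FastQC 0.11.5 is also listed). Whether counting used strand, and what became of reads matching several places, is not given in the sources used here, which leaves overlapping and near-identical genes uncertain.

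Counts were analysed in R 4.3.3 with edgeR 4.0.16 (filterByExpr with a minimum count of 10 and minimum total of 15, TMM factors, quasi-likelihood test with condition as the only term, Benjamini-Hochberg adjustment at 0.05 over 15657 genes), and the steps were tested on simulated data. Intervals are 95% and SEs come from the same fit. CPM values are TMM-normalized, and RPKM values use the counted exon length in the files. Alternatives were edgeR's exact test (the test named by the study), DESeq2 1.42.0, other size factors, no filter, a replicate block, and leaving libraries out.

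The paper calls the samples paired. Deviations from the condition means correlated at 0.338, 0.422 and 0.575 between libraries with the same number (1, 2 and 3). Correlations between libraries with different numbers are not given here, and both libraries numbered 3 stood apart from the others. These values therefore cannot show which of the libraries numbered 1 and 2 belong together. Pairing by number was assumed, and the results with the block rest on it. Libraries of 1 condition differed by more than sampling noise (chi-square per degree of freedom of 6.09 to 68.5). With the block, the common biological coefficient of variation was 0.0751 in place of 0.141.

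The estrogen-induced genes and all other lists were chosen with earlier results of these data known, so no test was run on any list. Values in every library are given for the 8 largest rises and falls past the threshold with a mean of at least 100 counts (2 rises met this), the 5 highest RPKM values, genes that held, 4 pairs of paralogs, and genes whose call changed with the block. GREB1, EGR3, SGK3, SIAH2, RERG, NBL1, MAPT, CYP2B6 and the window of 5000 bases were chosen for fuller description after their values were seen. Protein identity between paralogs was planned and was not computed here. Figures used matplotlib 3.10.9 under Python 3.11.15.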

Additional observations from a re-analysis of the deposited data

How the results depend on the processing

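All 13 alternative settings for single genes could be run. Of the 28 genes that fell or rose, 24 kept their direction and stayed past the threshold in all 13 (22 that fell, and RET and PRSS23), and the exceptions were EGR3, RERG, TFF1 and UNC119. The number of genes that rose was 5 with edgeR's exact test, 5 with DESeq2 and 5 with upper-quartile factors. The shares of all tested genes that rose were 31.2%, 30.5% and 38.1%. With the replicate block and without both libraries numbered 3, 7 genes rose in each, beside 36.6% and 36.4% of all tested genes. When libraries were left out, from 2 to 7 genes rose, beside 24.7% to 36.4% of all tested genes. The number of estrogen-induced genes that fell was 15 when a change of at least 2-fold was also required, beside 4.91% of all tested genes. It ran from 22 to 30 when libraries were left out, beside 22.5% to 34.8% of all tested genes. The block left 28 genes that fell, beside 35.2% of all tested genes, and changed no other call than those given with their genes.

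Upper-quartile factors moved the median of all tested genes by 0.16 on the log2 scale and the share of calls that were higher from 51.1% to 64.5%, with a median of -0.59 over the estrogen-induced genes, which is -0.78 relative to all tested genes, against -0.77 with TMM factors. RERG (-0.59, adjusted p = 0.0951) and UNC119 (-0.15, adjusted p = 0.210) no longer passed under them, and RAB31 and TFF3 did. Dropping the filter on low counts moved the median of all genes by 0.15, since 22214 genes were then tested. Leaving libraries out gave medians from -0.81 to -0.65 over the estrogen-induced genes.

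Spearman's rho with abundance was -0.12 with CPM, -0.31 with the normoxia level and 0.046 with the hypoxia level, and ran from -0.19 to -0.10 when libraries were left out.

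Genes whose log2 fold change turned sign had values near 0 or wide intervals. Upper-quartile factors gave 0.11 for NBL1, 0.15 for SLC39A6 and 0.11 for STC2. For SCUBE2 the value was -0.012 with DESeq2, -0.0099 with median-of-ratios factors, -0.0011 with no filter and -0.021 with the block. Without both libraries numbered 3, SCUBE2 was at -0.25, SLC39A6 at 0.024 and TIPARP at -0.0032. When single libraries were left out, values ran from -1.48 to 1.07 for NBL1, -0.27 to 0.13 for SCUBE2, -0.047 to 0.031 for SLC39A6, -0.50 to 0.0069 for SYBU and -0.017 to 0.11 for TIPARP. The cause of these changes was not tested. CYP2B6, NBL1, SGK3, EGR3 and TFF1 had under 100 counts in at least 4 libraries. With the block the SE went from 0.90 to 0.28 for EGR3 and from 0.84 to 0.24 for NBL1 on the same counts.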
